A study of Mus musculus with 52 samples.

Results

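The miR-130 and miR-301a family was followed here as 3 microRNA (miRNA) precursors, mir-130a, mir-130b and mir-301a, of the 1187 precursors counted in gonadal white fat of huntingtin knock-in mice. The members were chosen by their miRBase accessions (MI0000156, MI0000408 and MI0000401). A miRNA is a short RNA, cut from a hairpin precursor, that guides silencing proteins to messenger RNAs through its seed, the bases 2 to 8 from its 5' end. The family shares 1 seed and is known in fat for pairing with the messenger RNA of Pparg, which encodes PPARgamma, the nuclear receptor that drives fat cell formation. miR-130a and miR-130b have been described as repressing Pparg in fat cell precursors and so holding back their differentiation, and miR-301a carries the same seed with a different 3' end.

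Small RNA of gonadal white fat from C57BL/6 mice at 6 months of age was sequenced in 52 libraries. The knock-in mice carried, in 1 copy, a huntingtin allele named by its CAG repeat number (Q20, Q80, Q92, Q111, Q140 or Q175), and the wild-type mice (WT) carried none. CAG expansion in huntingtin causes Huntington's disease, and the long alleles serve as its mouse models. There were 8 libraries each of Q20, Q80 and Q175 and 7 each of Q92, Q111, Q140 and WT. Each genotype held 4 females and 4 males, except 3 females in WT, Q111 and Q140 and 3 males in Q92. Whether each library stands for its own animal is not spelled out in the labels, and p-values may therefore cover only the spread between libraries, which may be technical.

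The 3 mature 3p strands show why the members are grouped, with the seed in capitals (RefSeq, GRCm38.p6).
miR-130a-3p: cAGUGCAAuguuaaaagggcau
miR-130b-3p: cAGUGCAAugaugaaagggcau
miR-301a-3p: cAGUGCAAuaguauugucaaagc
Their first 9 bases are identical. miR-130a-3p and miR-130b-3p have the same base at 20 of 22 positions, differing by U11A and A13G, counted from 1 at the 5' end with the base of miR-130a first. miR-301a-3p has the same base as miR-130a-3p at 12 of the first 22 positions and as miR-130b-3p at 11. Of 1738 mature sequences in the RefSeq table, 7 carry this seed. miR-301b, listed as a seed relative when the tests were planned, is not among them, so the 7 may not be the whole family. Besides the members, the other 4 are miR-130c, miR-721, miR-6341 and miR-6389. Their precursors were not matched to the deposited accessions and are not analysed here.

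The counts were made per precursor and not per arm, so the whole hairpins are what was measured. They are shown with the 3p arm in capitals.
Mir130a: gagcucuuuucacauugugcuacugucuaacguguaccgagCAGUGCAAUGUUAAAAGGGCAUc
Mir130b: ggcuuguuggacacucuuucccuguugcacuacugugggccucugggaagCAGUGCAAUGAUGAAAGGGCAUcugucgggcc
Mir301: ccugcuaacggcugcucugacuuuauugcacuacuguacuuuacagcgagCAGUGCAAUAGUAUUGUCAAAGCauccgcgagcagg
The lengths of 64, 82 and 86 nucleotides equal those recovered from the deposited tables for mir-130a, mir-130b and mir-301a. In GRCm38.p6, Mir130a lies at chr2:84741115-84741178 on the minus strand, where no other gene of GENCODE M21 overlaps it. Mir130b lies at chr16:17124061-17124142 on the minus strand, inside an intron of 2610318N02Rik on the same strand and 257 bases from Mir301b. Mir301, the gene of mir-301a, lies at chr11:87113004-87113089 on the plus strand, inside an intron of Ska2 on the same strand.

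Library totals ran from 1812067 to 5487948 estimated counts, with a median of 3783913. The libraries stood apart in 3 ways. All 15 WT and Q175 libraries carried 1 series of library numbers and the lane token 5, while the 37 libraries of Q20 to Q140 carried another series, 23 in lane 1 and 14 in lane 3. After the library number, the identifiers of the WT libraries begin with Q20, though their titles give WT. They are taken here as titled. Principal component 1 of log2 CPM over all precursors (CPM, counts scaled to the TMM-adjusted library size) held 45.6% of the variance, and 15 libraries scored above 5 on it, 14 of males and 1 of a female. The library labelled Q140 female replicate 2, which is the 1 female above 5, and that labelled Q140 male replicate 4 went against their labelled sex. On the 60 precursors higher and the 34 lower in females of the lane 5 series, none of them a member, the score (mean centred log2 CPM of the 60 minus that of the 34) of the library labelled Q140 female was -2.4 and that of the library labelled Q140 male 1.1. The other 17 females of lanes 1 and 3 scored between 0.8 and 1.3 and the other 18 males between -2.3 and 0.2. WT and Q20 mice shared cages and each other genotype was caged apart, so a difference of a longer allele from WT or Q20 cannot be told apart from one of housing.

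mir-130a was by far the most abundant member, whether a library came from WT or from any knock-in. Per unit length it averaged 26317 ± 6342 RPKM (counts per precursor length and library size, SD, n = 52). mir-301a averaged 1709 ± 495.0 RPKM and mir-130b 166.7 ± 44.8 RPKM over the same libraries. In each library mir-130a took between 88 and 97% of the members' summed RPKM, mir-301a between 2.51 and 10.7% and mir-130b between 0.254 and 1.69%. By mean RPKM they ranked 45, 131 and 227 among the 1187 precursors. The 3 together took 0.184% ± 0.0406 of a library's counts (SD, n = 52), with 17 counts of mir-130b in the lowest library and a median of 48, so its values carry the largest counting error of the 3.

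The levels in each genotype are given in order, in CPM. mir-130a averaged 2041 ± 273.7 in WT (SD, n = 7), 1911 ± 170.0 in Q175 (n = 8), 1636 ± 289.5 in Q20 (n = 8), 1590 ± 166.3 in Q140 (n = 7), 1515 ± 184.9 in Q80 (n = 8), 1489 ± 204.0 in Q111 (n = 7) and 1401 ± 290.2 in Q92 (n = 7). Each neighbour in that order lay within 1 SD of the next, taking the larger SD of each pair, and both lane 5 genotypes stood at the top. mir-301a had both lane 5 genotypes at the bottom instead, at 187.7 ± 33.6 in Q20, 187.3 ± 54.8 in Q140, 151.7 ± 24.1 in Q111, 151.5 ± 29.2 in Q92, 149.4 ± 32.2 in Q80, 107.2 ± 6.76 in Q175 and 96.9 ± 30.9 in WT (SD, the same n). By the same rule only the step between Q80 and Q175, which is the step between the library series, was larger than 1 SD. The step from Q140 to Q111 was larger than the SD of Q111 but not that of Q140. mir-130b had the flattest order, at 16.3 ± 4.53 in Q92, 15.6 ± 2.73 in Q175, 14.4 ± 3.33 in WT, 13.6 ± 6.33 in Q140, 12.7 ± 6.33 in Q20, 12.3 ± 3.75 in Q80 and 12 ± 3.15 in Q111, with every neighbour within 1 SD.

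**Figure D1:**
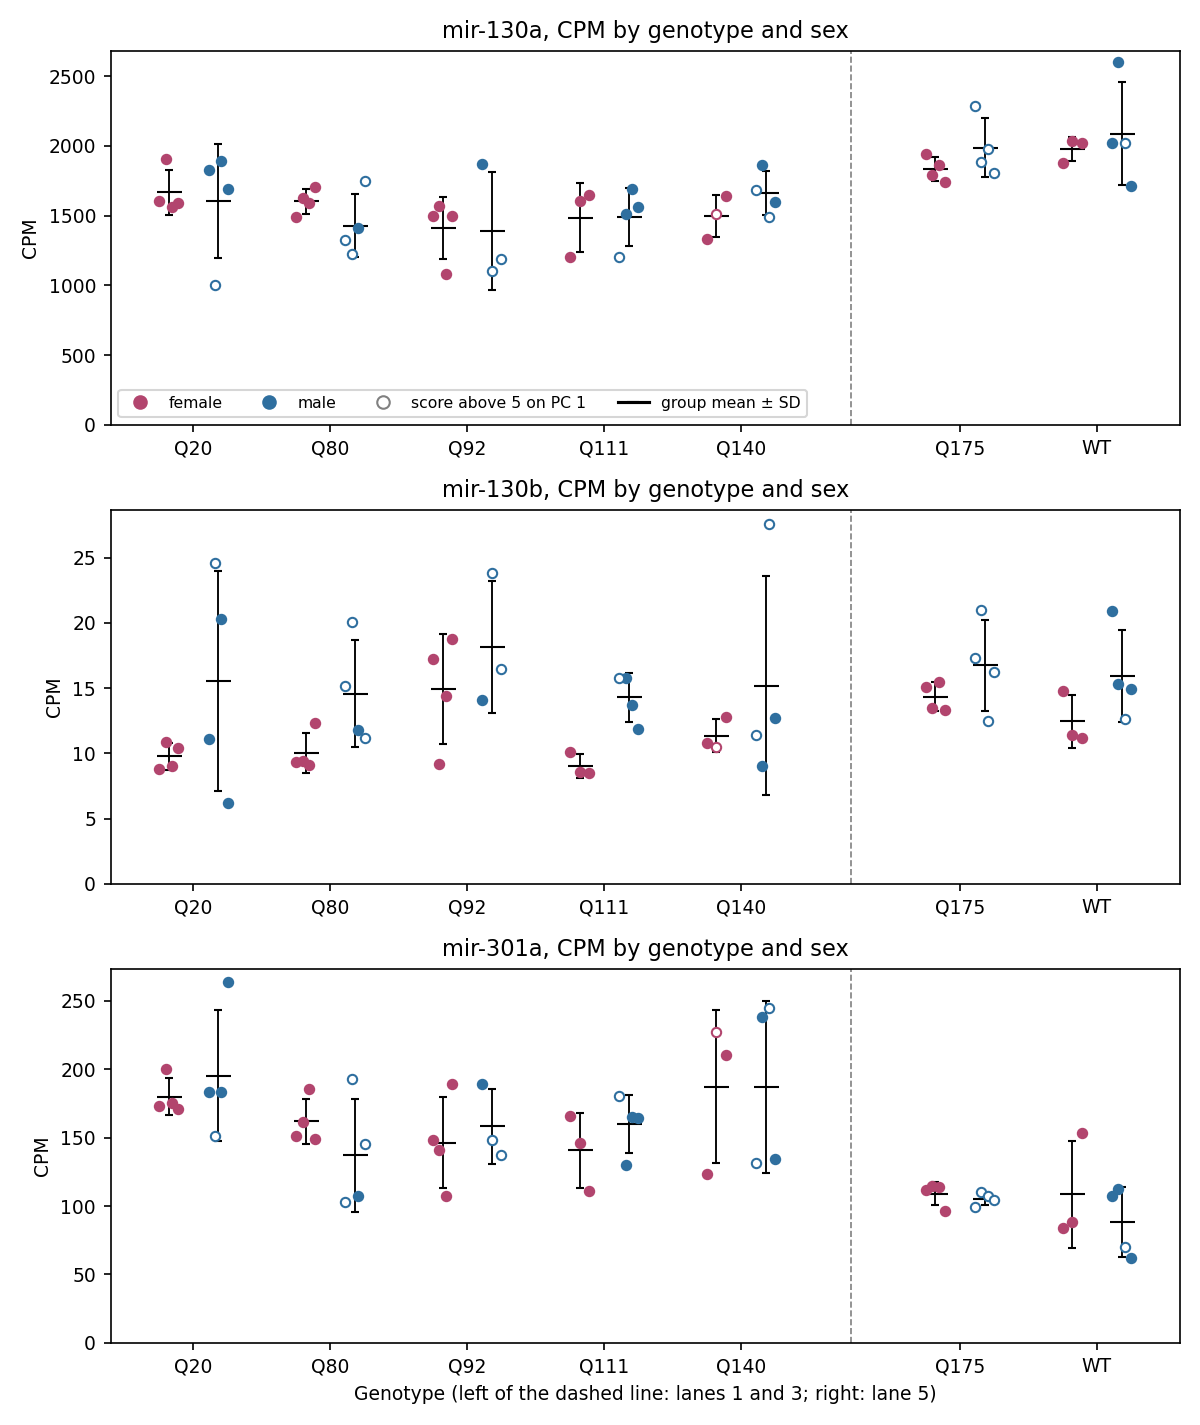
CPM of mir-130a, mir-130b and mir-301a (vertical axes, from 0) in each of the 52 libraries by genotype, females left of males, with group mean and SD and with open points for the 15 libraries above 5 on principal component 1 (PC 1). Right of the dashed line (Q175 and WT, lane 5) mir-130a is higher and mir-301a lower than in lanes 1 and 3. mir-130b has a lower female mean in every genotype, in Q140 only through 1 male library.

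Sex was the planned comparison in which a member passed the test. Gonadal fat is periovarian in females and epididymal in males, so a difference of sex cannot be told apart from one of depot. mir-130b was lower in females, at 8.50, 10.9 and 18.8 CPM (lowest, median and highest of 25), against 6.16, 15.2 and 27.6 CPM in males (27 libraries). The ranges overlapped, and 22 of 25 females lay below the male median. Females averaged 11.8 ± 2.87 CPM and males 15.7 ± 4.99 CPM (SD), and the fitted female level was 0.738 of the male one (95% interval 0.636 to 0.856), or -0.44 on the log2 scale (SE 0.11, adjusted p = 0.000645 by edgeR's quasi-likelihood test with genotype as a covariate and Benjamini-Hochberg adjustment over 356 precursors). In this comparison 48.3% of all precursors were called, 22.2% higher and 26.1% lower in females, so 1 member called of 3 is no more than the background. The other members gave intervals close to 0. mir-130a averaged 1638 ± 232.7 CPM in females and 1674 ± 365.9 CPM in males, a log2 fold change of -0.01 (95% interval -0.14 to 0.13, adjusted p = 0.947, edgeR), and mir-301a averaged 148.0 ± 38.8 and 146.9 ± 50.7 CPM, a log2 fold change of 0.03 (95% interval -0.15 to 0.21, adjusted p = 0.785, edgeR). Bulk tissue was sequenced, so fewer cells of a type and less of a miRNA per cell cannot be told apart.

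The female mean of mir-130b was below the male mean in each of the 7 genotypes. In Q111 the females held 10.1, 8.54 and 8.50 CPM, against 15.8, 15.8, 13.7 and 11.9 CPM in males, the 1 genotype in which the ranges did not overlap. How many of all precursors separate the sexes in Q111 was not counted, so this is not a trait shown for mir-130b in particular. In Q20 the females held 8.79, 10.9, 9.02 and 10.4 CPM and the males 11.1, 24.6, 20.3 and 6.16 CPM. The Q20 females were thus tightly grouped while the males spread on both sides of them. In Q80 the females held 9.36, 9.39, 9.09 and 12.3 CPM and the males 15.2, 20.1, 11.8 and 11.2 CPM. In Q92 the females held 17.2, 9.19, 14.4 and 18.8 CPM and the males 14.1, 23.8 and 16.5 CPM. Q92 females held the highest female values of the series and overlapped the males widely. In Q140 the females held 10.8, 10.5 and 12.8 CPM and the males 11.4, 9.07, 27.6 and 12.7 CPM, and 1 male library lay far above all others. The lower female mean in Q140 rested on that library. The 2 Q140 libraries that went against their labelled sex are counted here as labelled. In Q175 the females held 15.1, 13.5, 15.5 and 13.3 CPM and the males 17.3, 21.0, 12.5 and 16.2 CPM. In WT the females held 14.8, 11.4 and 11.2 CPM and the males 20.9, 15.3, 12.6 and 14.9 CPM. In Q175 and WT, as in Q20, Q80 and Q111, every female lay below the male median of its genotype. The ranges overlapped in all of these but Q111. In Q92 2 of 4 females and in Q140 1 of 3 lay above that median.

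Within the lane 1 and 3 series mir-130b fell by 0.50 on the log2 scale in females (adjusted p = 0.00384, edgeR, 37 libraries, 36.2% of precursors called). Within the lane 5 series the log2 fold change was -0.22 (adjusted p = 0.204, edgeR, 15 libraries, 30.5% called), which does not pass. The difference of the sex effect between the series, chosen for testing after these values were seen, was 0.28 (95% interval -0.18 to 0.75, adjusted p = 0.835, edgeR), so the effect was not shown to differ between them.

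Principal component 1 moved with sex and with mir-130b. The 14 males above 5 on it held 11.2 to 27.6 CPM with a median of 16.4, the other 13 males held 6.16 to 20.9 CPM with a median of 13.7, and the 24 females at or below 5 held 8.50 to 18.8 CPM with a median of 11.1. Without the 15 libraries above 5 the log2 fold change of females over males was -0.27 and no longer passed (adjusted p = 0.091, edgeR). The part of that component in the sex difference was not tested further. Without the pair of Q140 libraries that went against their labels it was -0.43 (adjusted p = 0.000854, edgeR).

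**Figure D2:**
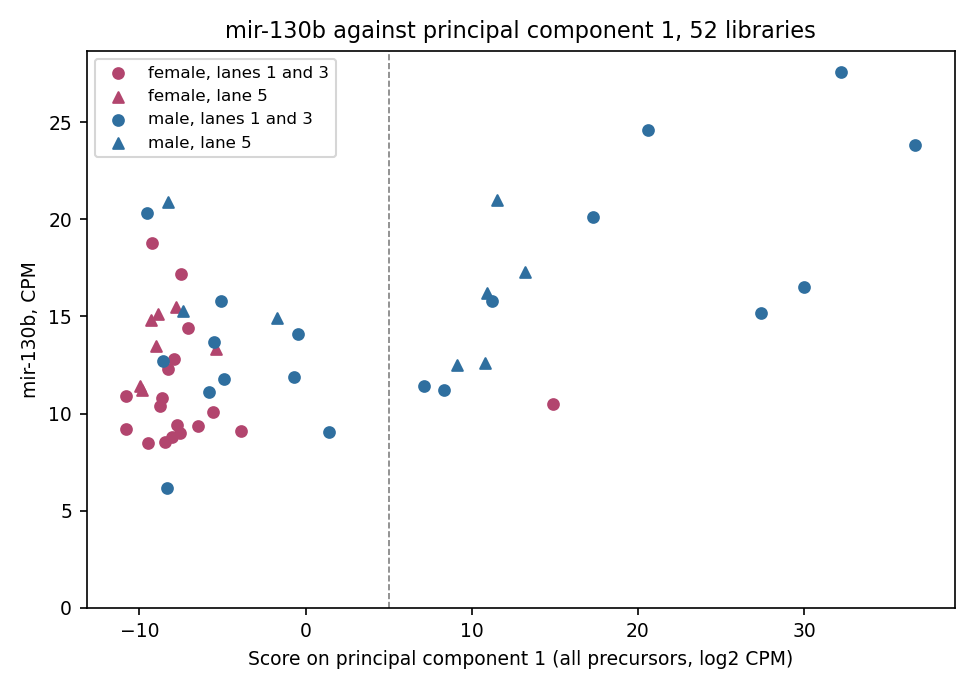
CPM of mir-130b (vertical axis, from 0) against the score on principal component 1 (horizontal axis, arbitrary units) in 52 libraries, coloured by labelled sex, with triangles for lane 5 and a dashed line at a score of 5. The 3 libraries above 23 CPM are males right of the line, and left of the line females (8.50 to 18.8 CPM) and males (6.16 to 20.9 CPM) overlap.

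The comparison of Q175 with WT asked whether the family differed in fat with the longest repeat, and it gave no call for any member, where 4.55% of 308 precursors were called. mir-130a held 1740, 1871 and 2284 CPM in Q175 (lowest, median and highest of 8), against 1711, 2020 and 2600 CPM in WT (7 libraries). The ranges overlapped, with 7 of 8 Q175 libraries below the WT median. The fitted log2 change was -0.08 (SE 0.08, 95% interval -0.26 to 0.10, adjusted p = 0.603, edgeR with sex as a covariate). mir-301a held 96.2, 108.7 and 114.5 CPM in Q175 and 62.3, 88.4 and 153.5 CPM in WT. All 8 Q175 libraries lay above the WT median, inside a WT range that was far wider than their own. The log2 change in the fit was 0.15 (SE 0.15, 95% interval -0.18 to 0.48, adjusted p = 0.605, edgeR). mir-130b held 12.5, 15.3 and 21.0 CPM in Q175 and 11.2, 14.8 and 20.9 CPM in WT, nearly the same range. Its log2 fold change was 0.14 (95% interval -0.14 to 0.42, adjusted p = 0.551, edgeR). In linear terms the interval of mir-301a ran from 0.883 to 1.39 times the WT level.

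Against Q20, the short knock-in allele of the same library series, none of the 4 longer alleles gave a call for a member. These comparisons share the 8 Q20 libraries. Of 345 precursors, 1.45% were called in Q80, 4.06% in Q92, 0% in Q111 (56 precursors had an unadjusted p under 0.05 with edgeR, and DESeq2 also called 0) and 0.29% in Q140. mir-301a held 151.3, 179.4 and 263.5 CPM in Q20 (lowest, median and highest), 102.7, 150.3 and 192.6 CPM in Q80, 107.5, 148.4 and 189.4 CPM in Q92, 111.2, 164.1 and 180.2 CPM in Q111 and 123.8, 210.8 and 244.9 CPM in Q140. Below the Q20 median lay 6 of 8 Q80, 5 of 7 Q92, 6 of 7 Q111 and 3 of 7 Q140 libraries, and each range overlapped that of Q20. The log2 fold changes over Q20 were -0.37 in Q80 (95% interval -0.69 to -0.05, adjusted p = 0.241, edgeR), -0.35 in Q92 (95% interval -0.68 to -0.02, adjusted p = 0.243), -0.30 in Q111 (95% interval -0.63 to 0.03, adjusted p = 0.388) and -0.08 in Q140 (95% interval -0.41 to 0.25, adjusted p = 0.823). The intervals excluded 0 before adjustment in Q80 and Q92, and the adjusted p-values did not pass.

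Lane moved with these values. Lane 3 held 5 of 8 Q20 libraries, 2 of 8 Q80, 3 of 7 Q92, 0 of 7 Q111 and 4 of 7 Q140 libraries. mir-301a averaged 192.4 ± 37.6 CPM in lane 3 (SD, n = 14) and 149.4 ± 29.6 CPM in lane 1 (n = 23), a log2 fold change of 0.31 with genotype and sex as covariates (SE 0.11, adjusted p = 0.0691, edgeR, 9.86% of precursors called), in a comparison added after the values were seen. With lane as a covariate the log2 fold changes of mir-301a were -0.25 in Q80, -0.29 in Q92 and -0.10 in Q111, each over Q20. The part of lane in them was not tested beyond this.

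mir-130a had 1004, 1649 and 1907 CPM in Q20 (lowest, median and highest), 1226, 1540 and 1750 CPM in Q80, 1083, 1494 and 1873 CPM in Q92, 1202, 1560 and 1690 CPM in Q111 and 1335, 1598 and 1863 CPM in Q140. Every range overlapped that of Q20, whose lowest library was the lowest of all 52. The log2 fold changes over Q20 ran from -0.27 in Q92 (SE 0.13, adjusted p = 0.272, edgeR) to -0.10 in Q140 (SE 0.13, adjusted p = 0.743, edgeR). mir-130b had 9.19, 16.5 and 23.8 CPM in Q92 and 6.16, 10.7 and 24.6 CPM in Q20, or 0.40 on the log2 scale (SE 0.21, adjusted p = 0.308, edgeR), with 6 of 7 Q92 libraries above the Q20 median. In Q80, Q111 and Q140 its log2 fold changes over Q20 lay between -0.08 and 0.02, with 95% intervals that reached -0.51 and 0.45.

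A slope over repeat length, from 20 to 140 repeats, asked whether a member moved in step with the allele. Per 100 CAG repeats, mir-130a changed by a log2 of -0.10 (95% interval -0.31 to 0.11, adjusted p = 0.731, edgeR), mir-130b by 0.03 (-0.34 to 0.39, adjusted p = 0.938) and mir-301a by -0.12 (-0.38 to 0.14, adjusted p = 0.736), and 0.29% of 345 precursors were called. Fitted without Q20, from 80 to 140 repeats, the slope of mir-301a was 0.55 per 100 repeats (SE 0.25, adjusted p = 0.961, edgeR), the opposite sign, and that of mir-130a 0.21 (adjusted p = 0.994). No slope passed the test either way.

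Interaction terms, females minus males, asked whether a genotype acted alike on the members in both sexes. For Q175 over WT the log2 differences were -0.07 for mir-130a (SE 0.18), 0.10 for mir-130b (SE 0.27) and -0.29 for mir-301a (SE 0.31), with adjusted p-values from 0.879 to 0.934 (edgeR). For the slope they were -0.19 (SE 0.21), 0.20 (SE 0.36) and 0.01 (SE 0.26), with adjusted p-values from 0.965 to 0.999 (edgeR). Of all precursors 0% were called in either (16 and 18 had an unadjusted p under 0.05 with edgeR, and DESeq2 also called 0).

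**Figure D3:**
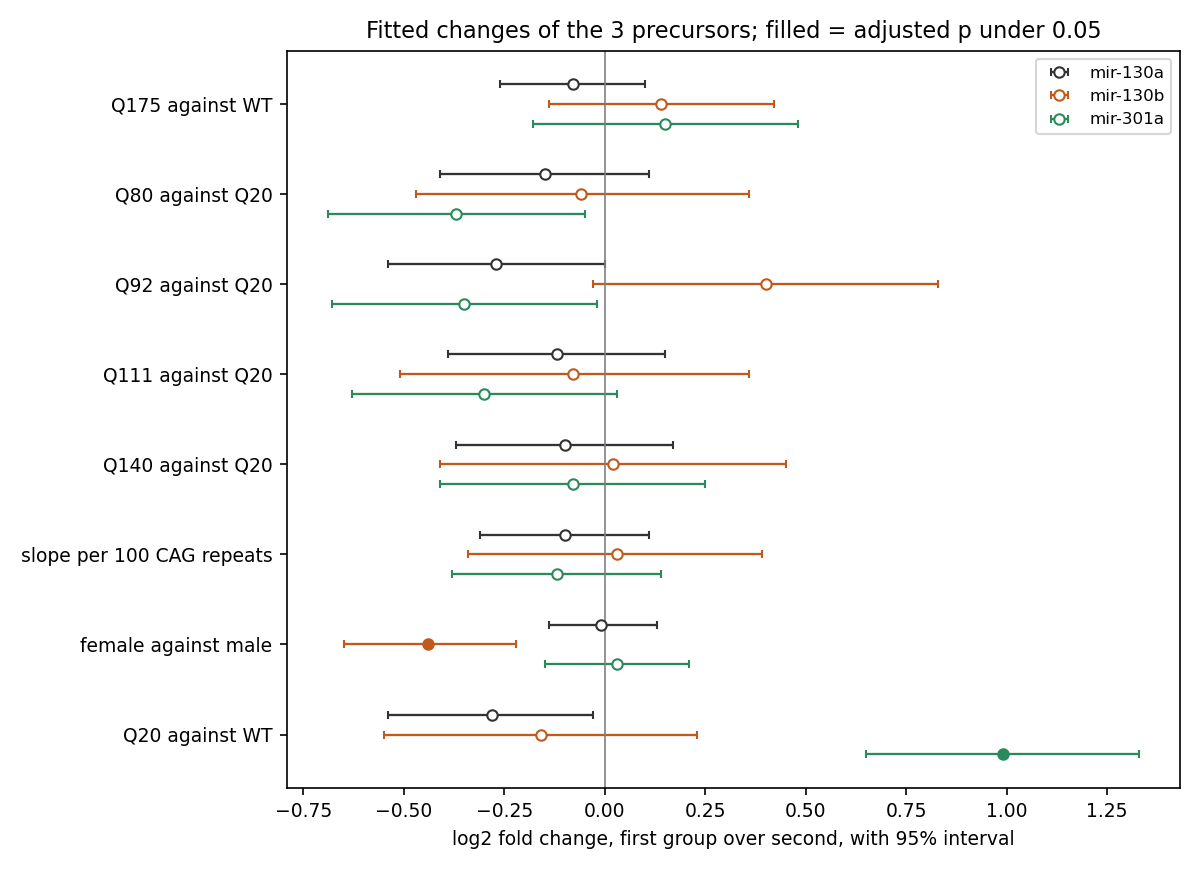
Fitted log2 fold changes of the 3 precursors (points, horizontal axis, first-named group over second, or per 100 CAG repeats for the slope) with 95% intervals, by comparison (vertical axis). Filled points passed an adjusted p of 0.05, which holds for mir-130b in females against males (-0.44) and mir-301a in Q20 against WT (0.99).

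The largest difference in the family lay between the library series. Q20 and WT mice shared housing, but their libraries belong to different series, so a difference between these genotypes cannot be told apart from one between the series. This comparison was added after the values were seen. mir-301a held 151.3, 179.4 and 263.5 CPM in Q20 and 62.3, 88.4 and 153.5 CPM in WT (lowest, median and highest). All 8 Q20 libraries lay above the WT median, and the ranges overlapped only at the highest WT library. The fitted Q20 level was 1.98 times that of WT (95% interval 1.57 to 2.51), or 0.99 on the log2 scale (SE 0.17, adjusted p = 4.8e-06, edgeR), while the median over all 356 precursors was 0.11 and 34.3% were called. mir-130a held 1004, 1649 and 1907 CPM in Q20 and 1711, 2020 and 2600 CPM in WT, with all 8 Q20 libraries below the WT median. Its log2 fold change was -0.28 (SE 0.13, adjusted p = 0.0763, edgeR), which did not pass, although 32 of 52 fits with 1 library left out did, as did those with DESeq2 and limma. For mir-130b it was -0.16 (SE 0.20, adjusted p = 0.544, edgeR). With 34.3% of all precursors called, 1 member called of 3 is no more than the background.

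The ratio of mir-130a to mir-301a within a library was not among the planned tests. It joins a member that was higher and a member that was lower in lane 5, so its step between the series is larger by construction. It adds nothing separate to the levels of the members. The RPKM of mir-130a was 8.62, 12.5 and 13.9 times that of mir-301a in Q20 (lowest, median and highest), against 17.7, 31.0 and 38.7 times in WT, and these ranges did not overlap. How many other pairs of precursors separate Q20 from WT in the same way was not counted. In Q175, also in lane 5, the ratio was 21.1, 23.2 and 31.0, with 7 of 8 libraries below the WT median and the ranges overlapping. In the 37 libraries of Q20 to Q140 it averaged 12.9 ± 2.90 and in the 15 of WT and Q175 26.9 ± 5.97 (SD), with every one of the 37 below the median of the 15. The ranges, 8.19 to 19.9 and 17.7 to 38.7, overlapped by a little. The ratio of mir-130b to mir-301a averaged 0.0885 ± 0.0356 in the 37 libraries and 0.160 ± 0.0427 in the 15.

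**Figure D4:**
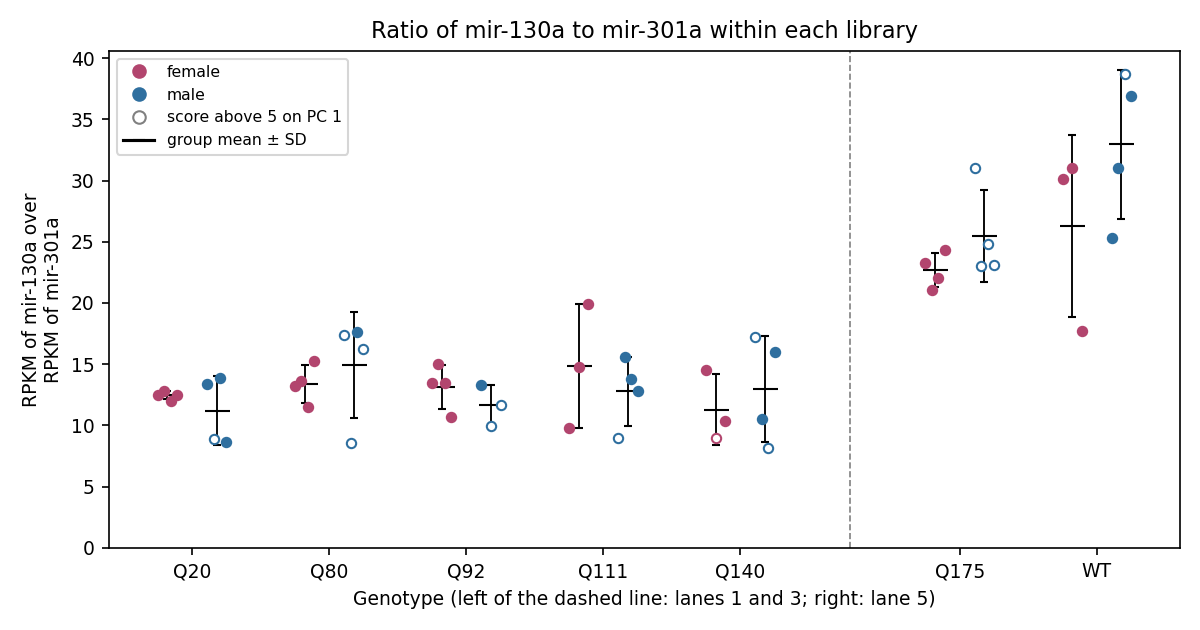
RPKM of mir-130a divided by RPKM of mir-301a (vertical axis, from 0) in each of the 52 libraries by genotype, females left of males, with group mean and SD and with open points for libraries above 5 on principal component 1 (PC 1). The 37 libraries left of the dashed line lie between 8.19 and 19.9 and the 15 right of it between 17.7 and 38.7.

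The members were also compared with each other across libraries. Within the 37 libraries of Q20 to Q140, log2 CPM of mir-130a and mir-130b had a Pearson's r of -0.47 (permutation p = 0.00313, adjusted over 6 relations 0.0188) and a Spearman's rho of -0.39 (permutation p = 0.0163, adjusted 0.0979). Without the 2 libraries farthest from the median of mir-130a, r was -0.39. It was -0.65 in lane 1 (n = 23) and -0.33 in lane 3 (n = 14), and -0.06 in the 27 libraries at or below 5 on principal component 1. The part of that component in the relation was not tested. By sex the r of mir-130a and mir-130b was -0.27 in the 18 females and -0.58 in the 19 males of these lanes. The permutations were not made within sex. mir-130a and mir-301a had an r of 0.36 (permutation p = 0.0283, adjusted 0.0848), a rho of 0.34 (permutation p = 0.0393, adjusted 0.118) and an r of 0.29 without the 2 farthest libraries. Its r was 0.23 in lane 1, 0.07 in lane 3 and 0.59 in the 27 libraries at or below 5 on principal component 1. mir-130b and mir-301a had an r of -0.04 and a rho of -0.05 (permutation p = 0.806 and 0.770, adjusted 0.912 and 0.927). In the 15 libraries of WT and Q175 the r of the same pairs was 0.05, 0.25 and 0.03 and the rho -0.02, 0.08 and 0.12, with adjusted permutation p-values from 0.724 to 0.954.

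For no member were the other 2 members among the 3 precursors most like it in pattern. Likeness was Pearson's r of log2 CPM over the 37 libraries of Q20 to Q140, among 247 precursors averaging at least 10 CPM, and is a description over libraries that share lanes and principal component 1. mir-130a was most like MI0000153 (r = 0.79), MI0000144 (0.72) and MI0000570 (0.72), but over the 15 other libraries these r were 0.25, 0.14 and 0.10. mir-130b was most like MI0000224 (r = 0.69), MI0000225 (0.68) and MI0000579 (0.66), with 0.41, 0.42 and 0.38 over the 15. mir-301a was most like MI0000617 (r = 0.62), MI0000148 (0.62) and MI0000547 (0.59), with 0.15, 0.18 and 0.57 over the 15. Of these 9, MI0000547 alone had a similar r in both series. No names come with these accessions in the files. Among the 247, mir-301a ranked 55 by likeness to mir-130a, and mir-130b ranked 212.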

How the data were processed

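Estimated counts and RPKM values of 1187 precursors in 52 libraries were taken as the authors deposited them. Per the submitters' processing notes, CASAVA 1.8.2 was used. Not given in the sources used here are the aligner, the build, the miRBase release, the counter, and how reads shared by near-identical precursors were split. Of the estimated counts, 89.1% were whole within 1e-04, among them every value of the 3 members, and all were rounded to whole numbers. Whole counts had been assumed when the tests were planned. No other precursor held values identical to a member's. All 72 pairs of libraries from 1 group differed by more than sampling noise (smallest chi-square over degrees of freedom 26.2), and each library counts once.

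Differences were tested with edgeR 4.0.16 in R 4.3.3 (quasi-likelihood F test, robust, TMM scaling, Benjamini-Hochberg adjustment, threshold 0.05) on precursors reaching 10 counts in 7 or more fitted libraries. All 3 members passed that filter. Q175 against WT used 15 libraries, Q80 to Q140 against Q20 and the slope used 37, each with sex as a covariate, and females against males used all 52 with genotype as a covariate. Intervals of fold changes are at 95%. CPM uses TMM library sizes and log2 CPM a prior count of 2. Levels are compared between members only by RPKM. Permutation p-values used 100000 resamples and are 2-sided. On simulated data in which most tested precursors were changed, the edgeR fit recovered nearly all signs and missed many of the smallest changes. In the Q175 design its log2 changes came out shifted downward there, and some unchanged precursors were called. In the planned genotype comparisons of the data at most 4.55% of precursors were called, so the simulated setting differs from them.

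Alternatives were the size factors or the Wald test of DESeq2 1.42.0, all precursors unfiltered, limma 3.58.1 on log2(RPKM + 1), a replicate block, each sex alone, lane as a covariate, the slope without Q20, the sex difference within each library series, leaving out the 15 libraries above 5 on principal component 1 or the 2 Q140 libraries at odds with their labelled sex, and each library left out in turn. The members and lists were chosen with earlier results of these data known. Named precursors are the members in every comparison, the mature sequences sharing their seed, and the 3 precursors most like each member. The names of the members come with their accessions and were checked against hairpin lengths in RefSeq. Lists of 54 other miRNAs (seed relatives, regulators of fat cell formation and markers of fat, endothelium, epithelium, leukocytes, muscle, red cells and stroma) were matched to 0 accessions, since the files pair no names with them, so the tissue label was not checked against markers.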

Additional observations from a re-analysis of the deposited data

Results flagged for a closer look

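In groups of 4 libraries of 1 genotype and sex, 5 of 30 tests of the members' CPM found 1 library farther from the others than Dixon's 95% value, where chance gives about 1 in 20 groups. The Q20 female replicate 2 held 1907 CPM of mir-130a against 1563 to 1608 CPM in the other 3, and 200.0 CPM of mir-301a against 171.0 to 175.5 CPM. The Q92 female replicate 3 held 1083 CPM of mir-130a against 1494 to 1571 CPM. The Q80 female replicate 4 held 12.3 CPM of mir-130b against 9.09 to 9.39 CPM. The Q175 female replicate 4 held 96.2 CPM of mir-301a against 112.0 to 114.5 CPM. All 5 were in females, and 2 of them in the same library.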

How the results depend on the processing

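No alternative gave a call for a member in Q175 against WT, in any longer allele against Q20, in the slope or in the interactions with sex, and values close to 0 changed sign under some of them; the cause was not tested. Values are log2 fold changes, and numbered replicates were paired in no fit but the block. With limma on log2(RPKM + 1), where the median of all precursors lay at 0.21 in Q80, 0.14 in Q111, 0.16 in Q140 and 0.14 in the slope, mir-130a stood at 0.11 in Q80, 0.06 in Q111, 0.09 in Q140, 0.05 in the slope, 0.10 in females against males and 0.07 in the Q175 by sex interaction. There mir-130b stood at 0.25 in Q80, 0.17 in Q111 and -0.15 in the slope by sex interaction, and mir-301a at 0.07 in Q140, 0.00 in the slope and -0.30 in the slope by sex interaction, whose median was -0.32. With no filter mir-130b in Q80 was 0.02, and with lane as a covariate mir-130a in Q111 was 0.00. In males alone mir-130a was 0.05 in Q175, 0.07 in Q140 and 0.05 in the slope, and mir-130b was -0.01 in Q140. In females alone mir-301a was -0.00 in Q175 and 0.12 in Q140, and mir-130b was 0.06 in Q80. Without Q20 the slopes were 0.21, -0.11 and 0.55 for mir-130a, mir-130b and mir-301a. Without the libraries above 5 on principal component 1, mir-301a was -0.02 in Q175 and -0.01 in females against males, mir-130b was 0.06 in Q111 and -0.27 in females against males (no longer called), and the sex by series interaction was 0.13 for mir-130a and -0.11 for mir-130b. The Q175 by sex interaction could not be fitted there, as no Q175 male is left. Without the 2 Q140 libraries, mir-301a was 0.01 in Q140, -0.19 in the slope by sex interaction and 0.38 in lane 3 against lane 1, which then passed (adjusted p = 0.032, edgeR). Females against males gave -0.22 for mir-130b within WT and Q175 (not called), and 0.03 for mir-130a and -0.02 for mir-301a within Q20 to Q140. In Q20 against WT, mir-130a passed with DESeq2 size factors in edgeR (-0.32), with DESeq2 (-0.32) and with limma (-0.54), and mir-130b passed with limma (-0.48), where the median of all precursors was -0.18. mir-301a was called in Q20 against WT in all 7 alternatives, with 0.78 the lowest, and mir-130b in females against males in 8 of 10, between -0.50 and -0.22 over all 10.

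With each library left out in turn, mir-130b in females against males stayed between -0.48 and -0.38 and was called in 52 of 52 fits, and mir-301a in Q20 against WT stayed between 0.83 and 1.11 and was called in 52 of 52. mir-130a in Q20 against WT ran from -0.38 to -0.23 (32 of 52 called), and mir-301a in lane 3 against lane 1 from 0.26 to 0.38 (7 of 37 called). Other values moved by over 1.5 times with no call and no change of sign, among them the following. In Q175, mir-301a was 0.30 without the WT female replicate 3 (adjusted p = 0.17, edgeR), mir-130b was 0.28 without the WT male replicate 1 (adjusted p = 0.144, edgeR) and mir-130a ran from -0.12 to -0.02. In Q92, mir-130b was 0.61 without the Q20 male replicate 2 (adjusted p = 0.102, edgeR) and mir-130a ran from -0.32 to -0.15. mir-130a ran from -0.18 to -0.08 in Q80, -0.19 to -0.04 in Q111 and -0.13 to -0.03 in the slope, and mir-301a from -0.18 to -0.02 in the slope. In Q20 against WT mir-130b ran from -0.34 to -0.09. In the slope by sex interaction mir-130a ran from -0.29 to -0.05. In the sex by series interaction mir-130a ran from -0.13 to -0.04 and mir-301a from 0.07 to 0.28. In lane 3 against lane 1 mir-130a ran from 0.12 to 0.25. The signs of other values turned in some fits, none of them called. For mir-130a these ran from -0.14 to 0.02 in Q140, -0.03 to 0.02 in females against males and -0.20 to 0.00 in the Q175 by sex interaction. For mir-130b they ran from -0.17 to 0.13 in Q80, -0.19 to 0.08 in Q111, -0.10 to 0.26 in Q140, -0.08 to 0.21 in the slope, -0.15 to 0.24 in the Q175 by sex interaction, -0.04 to 0.41 in the slope by sex interaction and -0.15 to 0.06 in lane 3 against lane 1. For mir-301a they ran from -0.15 to 0.09 in Q140, -0.00 to 0.06 in females against males, -0.49 to 0.04 in the Q175 by sex interaction and -0.20 to 0.13 in the slope by sex interaction.

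No steady pairing of libraries by replicate number was seen, though a check on groups of 3 or 4 libraries cannot exclude one. Of 60 pairs with the same number in 2 groups, the deviations from the group means correlated between -0.70 and 0.74, 15 pairs were above 0.1, and in 0 of 17 pairs of groups were all above it. A replicate block left mir-130b in females against males at -0.44 (adjusted p = 0.000924, edgeR) and mir-301a in Q20 against WT at 0.99 (adjusted p = 1.02e-05, edgeR), and it changed no member's call. Over all precursors it moved the count of calls to 0, against 14, in Q175 against WT, to 0, against 5, in Q80, to 2, against 14, in Q92, and to 0, against 1, in both Q140 and the slope.

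The low counts of mir-130b, with a median of 48 per library, limit the size of change that can be seen in it.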
